A study of Mus musculus with 4 samples.

Results

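This report concerns the expression of 9 TGF-beta and BMP signalling genes, out of 32285 genes counted, in C3H10T1/2 mesenchymal progenitor cells (MPC) before and after a cue to differentiate. The 9 genes were chosen by name, with earlier results of these data known. They comprise 4 ligands (Tgfb1, Tgfb2, Tgfb3 and Bmp4), 1 receptor (Tgfbr2), 1 secreted BMP antagonist (Grem1) and 3 target genes (Id1, Id2 and Id3). C3H10T1/2 is a mouse embryonic fibroblast-like line that can give rise to muscle, fat and cartilage cells. The cells carried an integrated lentiviral transgene for tagged human histone H3.1, either wild-type (H3WT) or with cysteine in place of arginine 26 (H3R26C), and were kept as pooled lines under puromycin on top of their own mouse histone genes. Each line was given 5-Azacitidine (5-Aza), an inhibitor of DNA methyltransferases, at 3 µM for 24 h and collected on day 28, or the vehicle DMSO. This makes 4 conditions with 1 library of single cells each: H3WT DMSO, H3WT 5-Aza, H3R26C DMSO and H3R26C 5-Aza. The day on which the DMSO cells were collected is not given in the sources used here, so treatment and time in culture cannot be told apart. The transgene is a human sequence counted against a mouse reference, and the genotype labels could not be checked from these counts.

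TGF-beta ligands are secreted in a latent form and, once released, bind the receptor kinase TGFBR2, which recruits TGFBR1 and leads to phosphorylation of SMAD2 and SMAD3. BMP4 acts through the BMP receptors and the SMAD1, SMAD5 and SMAD9 proteins, and Gremlin 1, the product of Grem1, binds BMP ligands and keeps them from their receptors. The Id genes are classical BMP targets, and their products lack a DNA-binding region and hold E proteins such as TCF3 and TCF12 away from their partners MYOD1 and MYOG. TGF-beta and BMP signalling are both known to hold back skeletal muscle differentiation, and BMP4 is known to commit C3H10T1/2 cells to the fat lineage.

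The matrices held 39891 barcodes, of which 22049 passed the cell filter of the study (at least 5000 UMIs, at least 1500 genes and at most 20% mitochondrial UMIs). A UMI is a molecular tag that counts each captured RNA molecule once. The kept cells numbered between 3710 and 7619 per library, held between 84060490 and 110712425 UMIs per library and had a median of 22420 UMIs in H3WT DMSO, 16598 in H3R26C DMSO and 13149 and 13123 in the H3WT and H3R26C 5-Aza libraries. Between 24 and 58 kept barcodes were shared by any pair of libraries, and doublets were not removed. The 5 mesenchymal markers (Col1a1, Col1a2, Pdgfrb, Thy1 and Vim) were all above 1 CPM (UMIs of a gene for each 1000000 UMIs of the library) in every library. The summed levels of 5 endothelial markers were 0.311, 3.06, 0.428 and 9.37 CPM in H3WT DMSO, H3WT 5-Aza, H3R26C DMSO and H3R26C 5-Aza, those of 5 epithelial markers 0.334, 2.24, 0.297 and 17.5, and those of 5 blood markers at most 3.17. Most of the epithelial sum in H3R26C 5-Aza was Krt8, at 14.9 CPM, with Krt18 at 2.35. Epcam, Cdh1 and Krt5 were at 0.172, 0.0542 and 0.00903 CPM there. Clustering gave 10 clusters, A to J in order of size, of which H and I were muscle-like by 12 of 13 skeletal muscle markers each, J was adipocyte-like by 10 of 11 markers, and the other 7 were left unnamed. The muscle-like clusters held 248 cells of H3WT 5-Aza, 420 of H3R26C 5-Aza and 0 cells of the DMSO libraries.

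Other properties of the libraries differed along with treatment and genotype. Cluster A, led by Colec10, Fosb and Eln, took 3119 H3WT DMSO cells and 3555 H3WT 5-Aza cells, with 2110 H3R26C DMSO cells and 167 H3R26C 5-Aza cells. Cluster B, led by Slpi and Col8a1, took 18, 1153, 47 and 4365 cells in the same order. The summed level of 11 immediate early genes, which are induced by serum and by handling of cells, was 5723, 3952, 3246 and 1310 CPM in that order. The share of cells assigned to G1 phase was 87.4%, 79.7%, 79.1% and 68.3%. Cells outside the muscle-like clusters also carried muscle RNA after 5-Aza, with a summed level of 13 skeletal muscle markers of 353 CPM in H3WT and 349 CPM in H3R26C, against 25.3 and 17.7 CPM in the DMSO libraries. The part of each of these in the results was not tested.

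Levels were compared as CPM over summed counts of all kept cells, in which fewer cells of a type and less RNA per cell cannot be told apart. With 1 library per condition no test between conditions was possible. Each interval given is a 95% interval that covers counting error only, not differences between cultures. A gene was called higher or lower in a comparison where the log2 ratio of CPM + 1 reached 1 in size, which is a 2-fold difference, among the 12482 genes that averaged 1 CPM or more over the 4 libraries. All 9 genes passed this minimum, with between 1059 UMIs (Tgfb1 in H3WT DMSO) and 58694 UMIs (Id3 in H3WT DMSO) behind a level. The comparisons share libraries, so that their values are given side by side and not as independent results.

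The genes lie apart in the genome. In GRCm38 with the GENCODE M21 annotation, the ligand genes span chr7:25687002-25705077 (Tgfb1, plus strand), chr1:186622792-186705989 (Tgfb2, minus), chr12:86056745-86079041 (Tgfb3, minus) and chr14:46383520-46390669 (Bmp4, minus). Tgfbr2 spans chr9:116084293-116175360 (minus) and Grem1 chr2:113746164-113758646 (minus). The Id genes are short, at chr2:152736251-152737410 (Id1, plus), chr12:25093799-25097140 (Id2, minus) and chr4:136143497-136145755 (Id3, plus).

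The promoter sequences of Tgfb1, Tgfb2 and Grem1 are shown as examples of genes whose ratios over all cells had 1 direction for treatment and for genotype, and because 5-Aza acts on methylation at CpG dinucleotides. No methylation was measured in these libraries. The sequences are the 250 bases before the transcription start in RefSeq (GRCm38.p6), written 5′ to 3′ on the strand of the gene with each CpG in capitals.
Tgfb1 (chr7:25686752-25687001, plus strand): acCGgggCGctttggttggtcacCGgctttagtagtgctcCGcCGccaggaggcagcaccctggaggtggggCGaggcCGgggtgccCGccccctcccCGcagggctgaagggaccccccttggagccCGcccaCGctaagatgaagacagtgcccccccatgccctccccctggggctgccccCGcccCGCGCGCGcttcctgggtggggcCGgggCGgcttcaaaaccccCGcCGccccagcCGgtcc
Tgfb2 (chr1:186705990-186706239, minus strand): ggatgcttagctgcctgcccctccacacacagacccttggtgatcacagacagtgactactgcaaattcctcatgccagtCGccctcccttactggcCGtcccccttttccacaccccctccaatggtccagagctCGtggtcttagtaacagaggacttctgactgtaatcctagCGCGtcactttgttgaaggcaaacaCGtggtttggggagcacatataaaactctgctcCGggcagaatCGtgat
Grem1 (chr2:113758649-113758898, minus strand): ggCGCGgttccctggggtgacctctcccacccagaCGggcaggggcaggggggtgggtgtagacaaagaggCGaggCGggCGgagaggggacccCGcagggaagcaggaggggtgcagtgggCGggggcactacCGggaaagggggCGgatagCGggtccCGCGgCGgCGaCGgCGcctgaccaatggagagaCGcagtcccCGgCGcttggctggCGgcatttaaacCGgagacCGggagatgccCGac

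The window of Grem1 held 24 CpG dinucleotides and that of Tgfb1 held 21, more than 88.0% and 83.7% of the windows of 32851 promoters, whose median was 6. Tgfb2 held 8, which is more than 57.0% of the windows, and its window overlaps an exon of the antisense gene Gm29491. Id3 also had 1 direction for treatment and for genotype, but its window overlaps annotated exons and is not shown. Id2 and Id3 held 18 each, Tgfbr2 held 12 and Bmp4 held 11. The window of Id2 also lies inside the span of the gene given above, so that it is not upstream of Id2 in that annotation. Id1 and Tgfb3 were not matched, so that 7 of the 9 genes were described. In these windows the motif GTCTG, which holds a SMAD-binding core, was found on either strand in Tgfb2 (2 sites), Id3 (2 sites), Tgfbr2 (1 site) and Grem1 (1 site), against 42.2% of all windows. The GC-rich motif GGCGCC was found in Grem1 and Id2, with 1 site each, against 9.59% of all windows. The E-box CAGCTG, a form bound by E proteins and MYOD1, was found in Id2 only, against 13.0% of all windows. The motifs GGCGCC and CAGCTG read the same on both strands, and a match is given as a description of the letters and not as a bound site.

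Tgfb1, whose product is the most widely expressed TGF-beta ligand, was higher after 5-Aza in both genotypes. Its level was 12.2 CPM in H3WT DMSO (11.5 to 12.9), 22.6 in H3WT 5-Aza (21.6 to 23.6), 15.1 in H3R26C DMSO (14.3 to 15.9) and 35.8 in H3R26C 5-Aza (34.7 to 36.9). The 4 intervals do not overlap, and the order from low to high was the DMSO libraries, then H3WT 5-Aza, then H3R26C 5-Aza. The ratio of 5-Aza to DMSO was 1.85 in H3WT (1.72 to 2.00) and 2.37 in H3R26C (2.23 to 2.53). The log2 ratio of CPM + 1 was 0.84 in H3WT and 1.19 in H3R26C, which passed the call. Tgfb1 was also higher with 5-Aza within every cluster that held at least 50 cells of both libraries compared, which were 4 clusters for H3WT, with log2 ratios from 0.34 to 0.95, and 4 for H3R26C, from 0.18 to 0.85. The counting intervals overlap in D for H3WT and in A and F for H3R26C. The within-cluster log2 ratios in H3R26C all lay under the 1.19 over all cells. Between genotypes Tgfb1 was higher in H3R26C in 3 of 4 clusters with DMSO and in 4 of 7 after 5-Aza. With DMSO the counting intervals overlap in C, D and E and meet in A. After 5-Aza they overlap in every cluster but H. After thinning each cell to 5000 UMIs, a Tgfb1 UMI was found in 5.39% of H3WT DMSO cells (4.69% to 6.17%), 10.4% of H3WT 5-Aza cells (9.63% to 11.2%), 7.28% of H3R26C DMSO cells (6.55% to 8.06%) and 16% of H3R26C 5-Aza cells (15.2% to 16.9%). Without thinning these shares were 21.3%, 23.5%, 21.4% and 35.7%. The lowest thinned share of any cluster was 6.56%, in the adipocyte-like cluster J of 61 cells, and the H3WT DMSO share is no higher than that. Cluster J itself had a Tgfb1 level of 22.8 CPM on 28 UMIs, so that its share is not a background. No set of expressing cells is read from the H3WT DMSO share.

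Tgfb2, a ligand with its own developmental roles in mesenchyme, had the opposite pattern and was lower in H3R26C than in H3WT and lower after 5-Aza than with DMSO. The levels were 134 CPM in H3WT DMSO, 98.9 in H3WT 5-Aza, 83.1 in H3R26C DMSO and 39.2 in H3R26C 5-Aza. None of their counting intervals overlap, and H3R26C 5-Aza stood lowest. The log2 ratio of 5-Aza to DMSO was -0.43 in H3WT and -1.07 in H3R26C, and that of H3R26C to H3WT was -0.68 with DMSO and -1.31 after 5-Aza. The ratio of H3R26C to H3WT after 5-Aza was 0.396 (0.382 to 0.411).

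Within clusters, Tgfb2 was lower in H3R26C than in H3WT in 4 of 4 clusters with DMSO, with log2 ratios from -1.43 in D to -0.45 in A. After 5-Aza it was lower in 7 of 7 clusters, the muscle-like clusters included, from -1.93 in E to -0.38 in I. In I the counting intervals of Tgfb2 overlap. In cluster A its level was 133 CPM in H3WT DMSO, 105 in H3WT 5-Aza, 97.1 in H3R26C DMSO and 79.9 in H3R26C 5-Aza. In cluster C, led by Igfbp5, the values were 204, 122, 126 and 56.4 CPM in the same order. Treatment gave a less even picture in H3WT, where Tgfb2 was lower with 5-Aza in 3 of 4 clusters and at a log2 ratio of 0.14 in E, a cluster led by histone genes that had 50 cells of H3WT DMSO. Thinned cells with a Tgfb2 UMI made up 43.2%, 34.1%, 30.1% and 16% of H3WT DMSO, H3WT 5-Aza, H3R26C DMSO and H3R26C 5-Aza, against 4.92% in cluster J. Unthinned, the shares were 81.0%, 59.5%, 57.7% and 33%. The order of the libraries by Tgfb2 is also their order by the summed immediate early genes, whose part was not tested. In G1 cells alone the log2 ratio of 5-Aza to DMSO in H3R26C was -0.97, just short of the call.

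Tgfb3, the third TGF-beta ligand, differed less between libraries. Its level was 15.7 CPM in H3WT DMSO, 18.4 in H3WT 5-Aza, 15.5 in H3R26C DMSO and 24 in H3R26C 5-Aza. The DMSO libraries were alike within counting error, with a ratio of H3R26C to H3WT of 0.986 (0.913 to 1.06). H3R26C 5-Aza was the highest, with a ratio to its DMSO library of 1.55 (1.45 to 1.65). Tgfb3 was higher with 5-Aza in 4 of 4 clusters of H3R26C, with log2 ratios from 0.08 in C, where the levels were 19.8 and 18.7 CPM, to 2.15 in E, where they were 27.0 and 5.32 CPM. The counting intervals overlap in A and C. Against H3WT after 5-Aza it was higher in 3 of 7 clusters and lower in 4.

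Bmp4, the ligand of the BMP branch among the 9 genes, had treatment ratios of opposite direction in the genotypes over all cells. Its level was 65.3 CPM in H3WT DMSO, 54.1 in H3WT 5-Aza, 44.8 in H3R26C DMSO and 58.1 in H3R26C 5-Aza. The log2 ratio of 5-Aza to DMSO was -0.27 in H3WT and 0.37 in H3R26C, and neither reached the call. These ratios differ by 0.64, which was not tested. Neither ratio was shared by all clusters. In H3WT Bmp4 was lower with 5-Aza in 3 of 4 clusters and higher in C, at 28.6 CPM with DMSO and 40.6 with 5-Aza. It was higher with 5-Aza in C and lower in E in both genotypes. The counting intervals overlap in D and E for H3WT and in C for H3R26C. The H3R26C ratio was 1.11 on the log2 scale in A, where the levels were 58.2 CPM with DMSO and 127 with 5-Aza over 167 cells, and -1.15 in F. The highest level of Bmp4 was 129 CPM in cluster G, led by Cilp and Enpp2 and made up of 560 cells of H3R26C 5-Aza alone.

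Tgfbr2, a receptor gene of the TGF-beta branch, had a level of 261 CPM in H3WT DMSO, 316 in H3WT 5-Aza, 246 in H3R26C DMSO and 202 in H3R26C 5-Aza. It was higher with 5-Aza in H3WT, at a log2 ratio of 0.27, and lower in H3R26C, at -0.28, and neither reached the call. The difference of -0.55 between these ratios was not tested. Within clusters of the H3R26C libraries, Tgfbr2 was lower with 5-Aza in 1 of 4, cluster F, and higher in the other 3. In A the counting intervals overlap. Cluster F had the highest level of Tgfbr2 with the libraries pooled, 495 CPM, which was 768 in H3R26C DMSO, 394 in H3WT 5-Aza and 342 in H3R26C 5-Aza, where C was at 347. Cluster F was set apart by nuclear RNA, since Malat1 made up 5.88% of its UMIs against at most 1.28% in the other clusters except I, at 12.8%. Its cells had a median of 7937 UMIs.

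Grem1, the antagonist, was higher with 5-Aza and higher in H3R26C over all cells, but not in every cluster. The levels were 45.9 CPM in H3WT DMSO, 70.5 in H3WT 5-Aza, 74.4 in H3R26C DMSO and 112 in H3R26C 5-Aza. All 4 log2 ratios lay close together, at 0.61 and 0.58 for treatment in H3WT and H3R26C and at 0.68 and 0.66 for genotype with DMSO and after 5-Aza, under the call. Thinned shares of cells with a Grem1 UMI were 10.9%, 15.7%, 19.9% and 25.6% in that order of libraries, against 1.64% in cluster J, and 26.6%, 26.7%, 38.1% and 40.3% unthinned.

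Grem1 varied more between clusters than between libraries. Over all libraries it ran from 4.08 CPM in J, 21.2 in I and 24.5 in H to 136 in B and 141 in D, a cluster led by Tmem176b. Within a library B and D were not always the highest, since in H3R26C DMSO the level was 152 CPM in E and 133 in D, in H3R26C 5-Aza 145 in F and 143 in B, and in H3WT 5-Aza 133 in E, 135 in D and 103 in B. In cluster C the level was 18.7 CPM in H3WT DMSO, 90.1 in H3WT 5-Aza, 43.9 in H3R26C DMSO and 119 in H3R26C 5-Aza, which gave log2 ratios of treatment of 2.21 and 1.42. In cluster E, by contrast, it was 170, 133, 152 and 80.8 CPM in the same order, lower with 5-Aza in both genotypes. Over the clusters with at least 50 cells of both libraries, Grem1 was higher with 5-Aza in 2 of 4 in H3WT and 3 of 4 in H3R26C. It was higher in H3R26C than in H3WT in 1 of 4 clusters with DMSO, with log2 ratios from -0.43 in D to 1.19 in C, and in 5 of 7 after 5-Aza, from -0.71 in E to 1.31 in F. Cell cycle phase, assigned to each cell by its expression scores, went with Grem1 in the DMSO libraries. There its level was 37.9 CPM in G1 and 83.4 in G2M cells of H3WT, and 54.7 in G1 and 160 in G2M cells of H3R26C. In H3WT 5-Aza the direction was the same, at 67.8 CPM in G1 and 90.8 in G2M, while in H3R26C 5-Aza the level was 120 CPM in G1 and 88.3 in G2M. In G1 cells alone the log2 ratio of 5-Aza to DMSO in H3R26C was 1.12, past the call and higher than the 0.58 over all cells.

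The Id genes, targets of BMP signalling whose products hold back E protein partners, were all lower with 5-Aza over all cells. Together they summed to 819 CPM in H3WT DMSO, 539 in H3WT 5-Aza, 756 in H3R26C DMSO and 426 in H3R26C 5-Aza. Id3 made up most of these sums, with 676, 434, 584 and 332 CPM, and its ratio of 5-Aza to DMSO was 0.642 in H3WT (0.634 to 0.651) and 0.568 in H3R26C (0.560 to 0.576). Both 5-Aza libraries thus lay below both DMSO libraries. Id3 was lower with 5-Aza in 4 of 4 clusters in H3WT, with log2 ratios from -0.60 to -0.12, and in 4 of 4 in H3R26C, from -1.55 to -0.47. For H3WT the counting intervals overlap in E, at -0.12.

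Id1 was 57.1 CPM in H3WT DMSO, 39.5 in H3WT 5-Aza, 83.1 in H3R26C DMSO and 54.0 in H3R26C 5-Aza. It was lower with 5-Aza in both genotypes, at log2 ratios of -0.52 and -0.61, and higher in H3R26C than in H3WT for both treatments, at 0.53 and 0.44. Within clusters it was again lower with 5-Aza in 4 of 4 for each genotype. For H3WT the log2 ratios ran from -1.08 in A to -0.09 in C, with overlapping counting intervals in C and E. For H3R26C they ran from -1.34 to -0.64. With DMSO, Id1 was higher in H3R26C than in H3WT in 4 of 4 clusters, from 0.01 in D to 0.81 in C. The intervals overlap in E and in D, at 102 CPM in H3R26C and 101 in H3WT. After 5-Aza it was higher in H3R26C in 2 of 7 clusters and lower in 4, with log2 ratios from -0.78 in H to 1.16 in F. Unlike Id3, its level in H3R26C 5-Aza was close to that in H3WT DMSO.

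Id2 differed most between genotypes in its response. Its level was 86.6 CPM in H3WT DMSO, 65.9 in H3WT 5-Aza, 88.8 in H3R26C DMSO and 40.6 in H3R26C 5-Aza. The DMSO libraries were alike within counting error, with a ratio of 1.03 (0.994 to 1.06), and H3R26C 5-Aza stood well below the rest. The log2 ratio of 5-Aza to DMSO was -0.39 in H3WT and -1.11 in H3R26C. The H3R26C ratio less the H3WT ratio is -0.72, which was not tested. In H3WT Id2 was lower with 5-Aza in 3 of 4 clusters, with log2 ratios from -0.37 in C to 0.16 in E. The counting intervals for H3WT overlap in D and E. In H3R26C Id2 was lower with 5-Aza in 4 of 4 clusters, from -2.02 in C to -0.85 in E, and in C the level was 107 CPM with DMSO and 25.6 with 5-Aza. Thinned shares of cells with an Id2 UMI were 31.5%, 24.1%, 33.1% and 15.3% in H3WT DMSO, H3WT 5-Aza, H3R26C DMSO and H3R26C 5-Aza, against 7.63% in cluster I, and 70.4%, 45.2%, 64.6% and 31.3% unthinned. Within each genotype the summed immediate early level, the G1 share and the Id levels were all lower after 5-Aza. Across genotypes the order was not shared. H3WT 5-Aza had a higher immediate early sum than H3R26C DMSO, at 3952 against 3246 CPM, but a lower Id sum, at 539 against 756 CPM. The part of these was not tested. In G1 cells alone the log2 ratios of Id1, Id2 and Id3 in H3R26C were -0.69, -1.28 and -0.74.

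**Figure D1:**
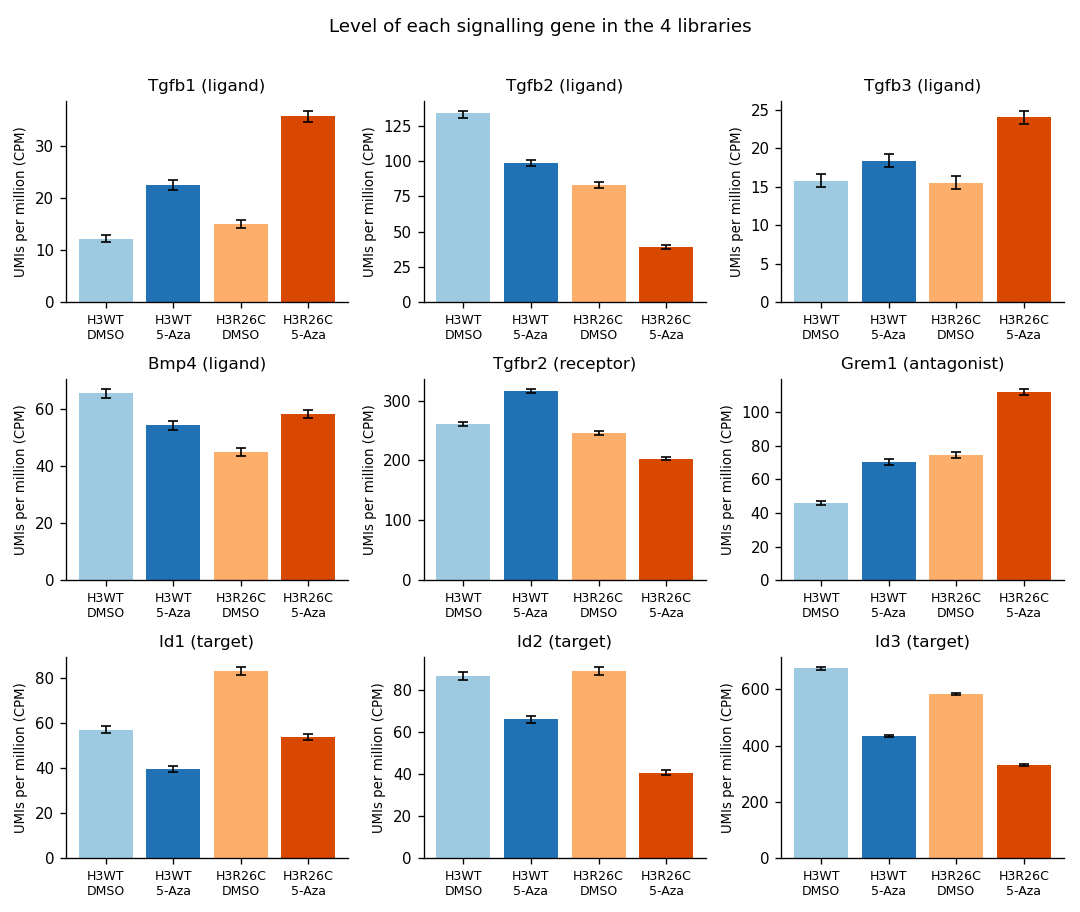
Bars give the level of each of the 9 genes in CPM in the 4 libraries, on an axis that starts at 0 and differs between panels, with exact Poisson 95% intervals. Tgfb1 and Grem1 are highest, and Tgfb2, Id2 and Id3 lowest, in H3R26C 5-Aza.

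Counted over the 9 genes, few reached the 2-fold call. For 5-Aza against DMSO in H3WT, 0 were higher and 0 lower, while 4.38% of all tested genes were higher and 0.272% lower. For the same contrast in H3R26C, 1 was higher (Tgfb1) and 2 were lower (Tgfb2 and Id2), beside 7.27% and 3.12% of all genes. For H3R26C against H3WT with DMSO, 0 were higher and 0 lower, beside 1.82% and 0.577%. After 5-Aza, 0 were higher and 1 was lower (Tgfb2), beside 4.21% and 2.68%. The median log2 ratio of the 9 genes was -0.27, -0.28, -0.02 and 0.10 in these comparisons, against 0.04, -0.04, 0.03 and -0.03 over all genes tested.

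**Figure D2:**
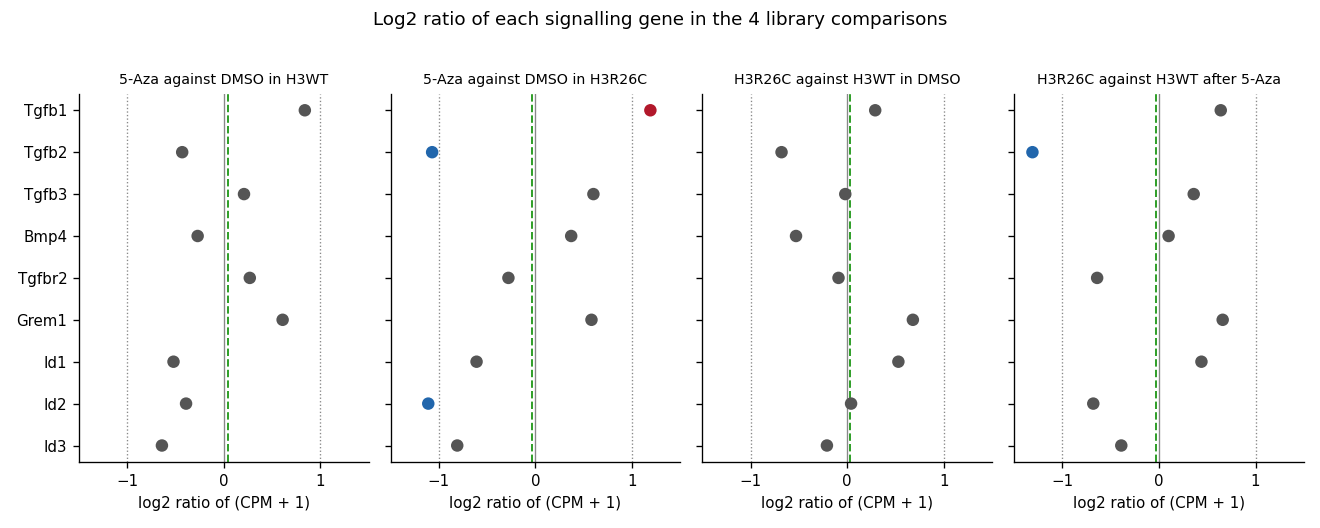
Each point is the log2 ratio of CPM + 1 of a gene in the comparison named above the panel. Dotted lines mark the 2-fold call, the dashed green line is the median of all 12482 genes tested, and the coloured points, for Tgfb1 (red), Tgfb2 and Id2 (blue), are those past the call.

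Muscle-like cells were compared with the other cells of the same library after 5-Aza. All 9 genes were among the 3000 variable genes that entered the clustering, so that these levels describe the clusters. Muscle-like cells were set apart by Myog, a transcription factor of terminal muscle differentiation, at 1193 CPM in H3WT and 1185 in H3R26C, against 5.23 and 8.33 CPM in other cells. The median depth was 14873.5 UMIs in muscle-like and 13111 in other cells of H3WT 5-Aza, and 19298.5 and 12957 in H3R26C 5-Aza.

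Grem1, Bmp4 and Tgfbr2 were lower in the muscle-like cells of both libraries. Grem1 was 18.1 CPM in muscle-like (14.2 to 22.8) and 73.1 in other cells of H3WT, and 27.0 (23.6 to 30.7) and 119 in H3R26C, with log2 ratios of -1.95 and -2.10. Bmp4 was 19.8 and 55.8 CPM in H3WT and 11.8 and 61.9 in H3R26C, with log2 ratios of -1.45 and -2.29. For Tgfbr2 the levels were 122 and 326 CPM in H3WT and 90.8 and 211 in H3R26C, with log2 ratios of -1.41 and -1.21. These genes passed the call in both libraries, and their counting intervals in muscle-like and other cells lay far apart.

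Tgfb1 was also lower in muscle-like cells, at 13.5 against 23.1 CPM in H3WT and 22.6 against 36.9 in H3R26C, short of the call, and the H3WT log2 ratio turned from -0.73 to 0.17 with muscle-like cells taken by markers, as described below. The other ligands were not alike in the libraries. Tgfb2 was 67.8 CPM in muscle-like and 101 in other cells of H3WT but 37.6 and 39.3 in H3R26C, where the ratio of 0.956 (0.850 to 1.07) does not leave out 1. Tgfb3 was higher in muscle-like cells of H3WT, at 30.1 against 17.8 CPM, and lower in those of H3R26C, at 16.2 against 24.6 CPM, where the log2 ratio turned from -0.57 to 0.09 by markers. Taken by itself, cluster I was above the other cells in both libraries, at 56.0 CPM in H3WT and 46.2 in H3R26C. Cluster H was at 23.6 and 13.2 CPM. Cluster I held 58 of the 248 muscle-like cells of H3WT and 60 of the 420 of H3R26C. The part of this mix was not tested.

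The 3 Id genes also went separate ways. Id2 was 107 CPM in muscle-like and 63.8 in other cells of H3WT, at a log2 ratio of 0.74, and 105 and 35.4 CPM in H3R26C, at 1.54 and past the call. With clusters H and I pooled, the muscle-like CPM of Id2 was thus alike in the genotypes, with a ratio of H3R26C to H3WT of 0.978 (0.871 to 1.10), and the other cells were not, at 0.555 (0.532 to 0.579). Id2 differed between H and I, as given below, and the part of their mix was not tested. In thinned cells an Id2 UMI was found in 32.4% of muscle-like (27.9% to 37.1%) and 14.3% of other cells of H3R26C 5-Aza. The same shares in H3WT were 23.0% (17.9% to 28.7%) and 24.2%, which do not follow the CPM and from which no order is read, and with the mean of per-cell CPM the log2 ratio in H3WT was 0.28. By markers it was -0.15. Without thinning they were 58.6% and 29.7% in H3R26C and 41.9% and 45.4% in H3WT.

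Id1 was 77.6 CPM in muscle-like and 37.6 in other cells of H3WT, a ratio of 2.07 (1.84 to 2.32), and 48.8 and 54.5 CPM in H3R26C, a ratio of 0.896 (0.809 to 0.991). It passed the call, at a log2 ratio of 1.03, in H3WT only, and whether the libraries differ was not tested. The call did not hold with a pseudocount of 5 CPM (0.96) or with the mean of per-cell CPM (0.90). Id3 was lower in muscle-like cells of both, at 307 against 441 CPM in H3WT and 231 against 340 in H3R26C.

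In the count of calls, 1 gene was higher (Id1) and 3 were lower (Bmp4, Tgfbr2 and Grem1) in the muscle-like cells of H3WT, beside 5.90% and 9.80% of all genes. In those of H3R26C 1 was higher (Id2) and the same 3 were lower, beside 4.73% and 11.6%. The median log2 ratio of the 9 genes was -0.56 and -0.57, against -0.18 and -0.23 over all genes. TMM scaling moved these medians of all genes to -0.13 and -0.10 and ended none of these calls. The immediate early genes summed to 2141 CPM in muscle-like cells and 4044 in other cells of H3WT, and to 815 and 1351 in H3R26C, and the 5 mesenchymal markers to 4712 and 9666, and to 5441 and 10698 CPM. Their part in the differences was not tested. When muscle-like cells were taken instead as all cells with at least 3 skeletal muscle markers after thinning, which are 2944 cells and include many outside clusters H and I, 0 of the 9 genes were called in either library and the log2 ratio of Bmp4 in H3WT turned to 0.18, beside the turns of Tgfb1, Tgfb3 and Id2 given above. With the signalling genes left out of the clustering, the muscle-like clusters held 648 cells in place of 668, and the log2 ratios of Grem1 were -1.84 and -2.23.

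**Figure D3:**
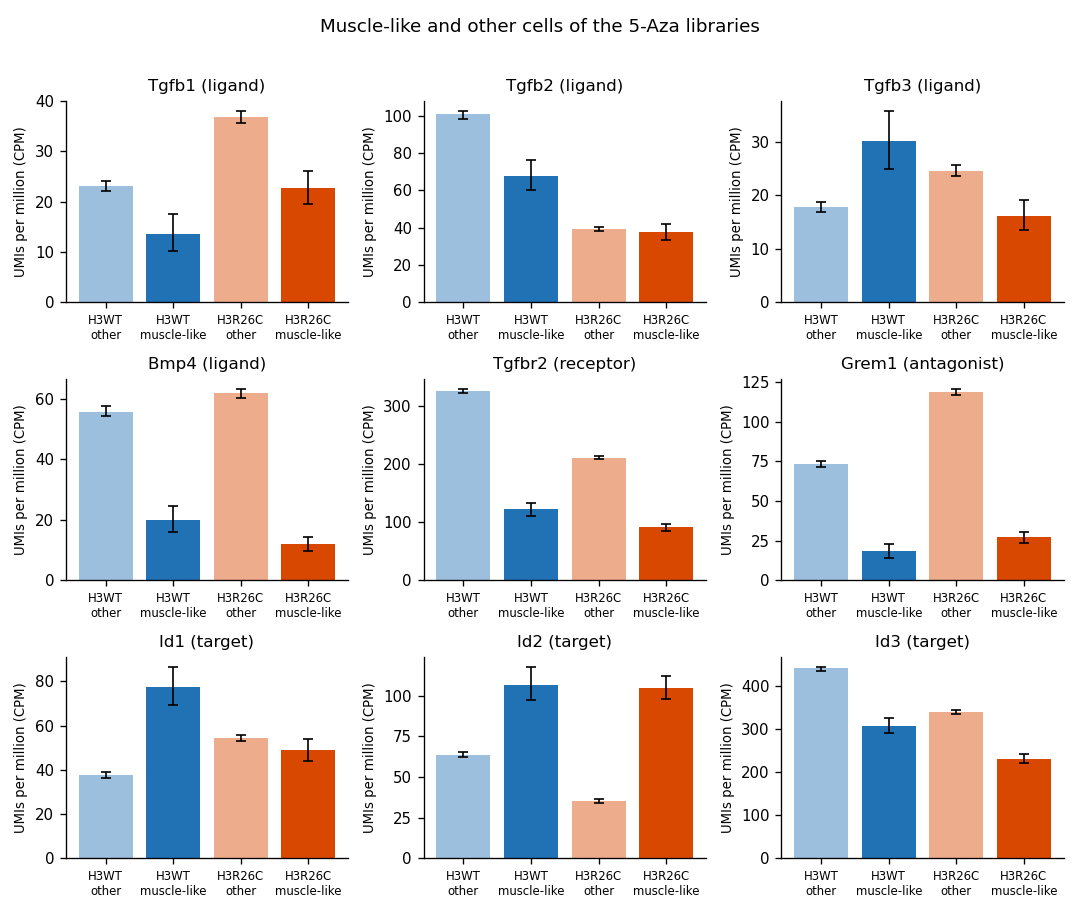
Bars give CPM of each gene in other cells (pale) and muscle-like cells (dark) of H3WT 5-Aza (blue) and H3R26C 5-Aza (orange), with exact Poisson 95% intervals and axes from 0. Grem1, Bmp4 and Tgfbr2 are lower in the muscle-like cells of both libraries, and Id2 is at 107 and 105 CPM in them.

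The muscle-like clusters differed from each other. Cluster H, led by Myog and Mylpf, held 550 cells with a median of 19070.5 UMIs, and cluster I, led by Ttn and Neb, which encode giant sarcomere proteins, held 118 cells with a median of 12254 UMIs. Id2 was 127 CPM in H and 29.2 in I for H3WT, and 112 and 34.7 for H3R26C. Id3 was 358 in H and 107 in I for H3WT, and 247 and 82.2 for H3R26C. In both libraries these Id genes were thus higher in H. Tgfb2 and Tgfb3 were higher in I. Tgfb2 was 54.3 CPM in H and 122 in I for H3WT, and 31.9 and 93.7 for H3R26C. For Tgfb3 the levels were 23.6 and 56.0 in H3WT and 13.2 and 46.2 in H3R26C. Malat1 made up 0.570% of the UMIs in H and 12.8% in I, the median mitochondrial share was 2.36% and 8.28%, and 65.8% and 94.1% of cells were assigned to G1. The part of these differences was not tested.

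Across all 10 clusters each gene had its own pattern, given here with the libraries pooled, so that the levels also carry the share of each library in a cluster. Tgfb1 ran from 13.1 CPM in I to 46.5 in G, Tgfb2 from 13.9 in J to 122 in C, Tgfb3 from 3.26 in J to 51.2 in I, and Bmp4 from 6.53 in J to 129 in G. The receptor Tgfbr2 was at its lowest in J, at 90.6 CPM, and H, at 95.4. Id1 ran from 28.5 in F to 131 in J, Id2 from 21.2 in J to 116 in H, and Id3 from 95 in I to 610 in A. The adipocyte-like cluster J thus had the lowest level of 6 of the 9 genes, with the highest of Id1, over 61 cells that came from all 4 libraries. Its low levels rest on few UMIs, such as 4 for Tgfb3, 5 for Grem1 and 8 for Bmp4. Its intervals overlap those of E for Tgfb2, of I for Bmp4 and Id2 and of H for Tgfbr2, so that these ranks are not settled. Other ends of these ranges are not settled either. The Tgfb1 level of I rests on 21 UMIs and its interval overlaps that of A. The intervals of C and I overlap for Tgfb2, and those of F and I for Id1. The order of clusters was not the same in each library. In H3R26C 5-Aza, Tgfb2 was highest in I, at 93.7 CPM, with 56.4 in C and 12.4 in E, and in H3WT 5-Aza Id3 was 493 CPM in C and 463 in A.

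**Figure D4:**
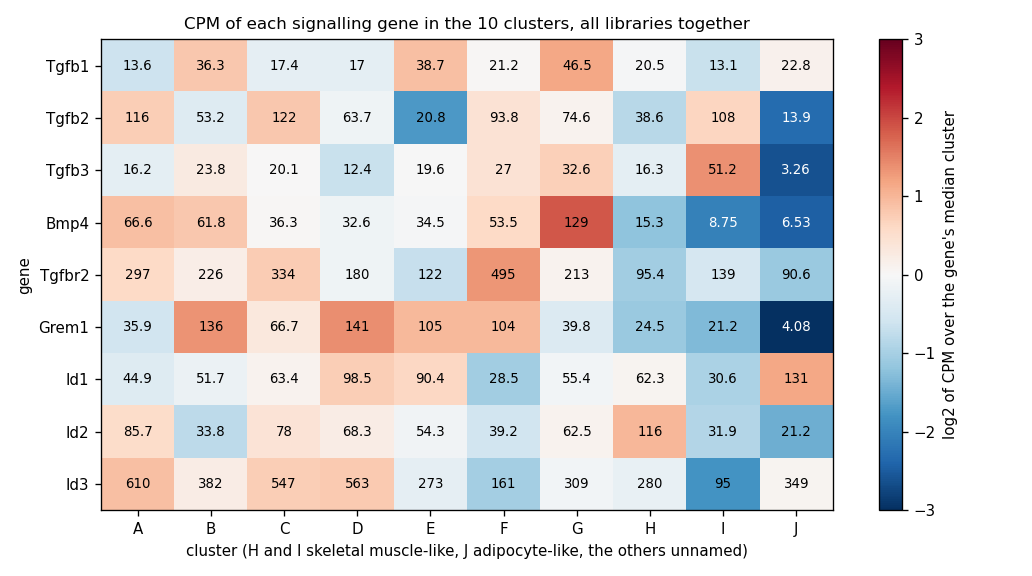
Numbers are the CPM of each gene in the 10 clusters over all libraries together, and colour is the log2 of that level over the median cluster of the same gene. With the libraries pooled, Grem1 is highest in B and D and lowest in J, and the muscle-like clusters H and I differ in Id2, Id3, Tgfb2 and Tgfb3.

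Over the 25 sums of a library and a cluster with at least 50 cells, which share 4 libraries and 9 clusters and differ in depth, the genes most like each of the 9 in log2 CPM were searched among 10149 genes. As a description, Tgfb1 was most like Mcub (r = 0.86), Slc27a1 (0.85) and Slurp1 (0.84). Tgfb2 was closest to Zfp651 (0.87), Rhoq (0.84) and Rnf10 (0.84), and Tgfb3 to Aopep (0.88), Gm7967 (0.86) and Kdm7a (0.86). Bmp4 went with Cpe (0.87), Grn (0.87) and Rap2a (0.86), Tgfbr2 with Zcchc24 (0.94), Fkbp14 (0.92) and Lamp2 (0.92), and Grem1 with Kitl (0.94), Chst1 (0.85) and Samd5 (0.84). Among the Id genes, Id1 was closest to Coq7 (0.89), Tmem238 (0.86) and Med9 (0.85), Id2 to Wdr12 (0.76), Msto1 (0.76) and Zfp428 (0.75), and Id3 to Gnas, H3f3a and Mpc2 (0.96 each). Among pairs of the 9 genes the highest positive value was 0.61, between Id2 and Id3. The values above were picked as the highest of 10149 genes, so that no comparison with these pairs is drawn.

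A list of 61 other genes of the pathway gave the setting, of which 46 passed the expression minimum. These were 4 of 13 ligands, 8 of 9 genes of latency and activation, 10 of 11 receptors, 8 of 8 Smads, 9 of 12 inhibitors and 7 of 8 targets. With 5-Aza in H3WT, 4 were higher and 0 lower, at a median log2 ratio of -0.04, beside 4.38% and 0.272% of all genes and their median of 0.04. Fst, which encodes the activin antagonist follistatin, was 75.8 CPM against 20.9 with DMSO. Gdf15, a stress-induced ligand, was 4.34 against 0.599, Inhba, an activin subunit, 2.56 against 0.437, and Acvrl1, a receptor of the endothelial branch, 4.90 against 1.89. Gdf15 and Inhba were under 1 CPM in both DMSO libraries. They reached the expression minimum through the 5-Aza libraries, so that their calls follow in part from that filter.

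With 5-Aza in H3R26C, 10 pathway genes were higher and 3 lower, at a median of -0.26, beside 7.27% and 3.12% of all genes and their median of -0.04. By the log2 ratio of CPM + 1, the largest were those of Inhba, at 7.84 CPM against 0.702, Acvrl1, at 12.2 against 1.64, Inhbb, another activin subunit, at 3.51 against 0.416, and Itgb8, an integrin subunit that activates latent TGF-beta, at 17.4 against 5.60. Fst was again higher, at 91.6 against 32.5 CPM. The 3 lower genes, named after their values were seen, were the inhibitory Smad6, at 8.82 against 25.4 CPM, the BMP antagonist Chrdl1, at 2.96 against 9.67, and Smad9, at 2.10 against 5.71. By role, 3 of 4 ligands, 3 of 9 inhibitors and 2 of 7 targets were higher, and 2 of 8 Smads were lower. The 3 ligands, Inhba, Inhbb and Gdf15, were at 0.702, 0.416 and 0.357 CPM in H3R26C DMSO. They reached the expression minimum mainly through the 5-Aza libraries, so that their count follows in part from that filter and is not read as a result.

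Between genotypes with DMSO, 1 pathway gene was higher in H3R26C and 2 were lower, at a median of -0.08, beside 1.82% and 0.577% of all genes and their median of 0.03. Tgfbi, a matrix protein gene induced by TGF-beta, was 29.1 CPM in H3WT and 87.7 in H3R26C. Bambi, a decoy receptor, was lower, at 14.8 CPM in H3WT and 5.42 in H3R26C. After 5-Aza 4 were higher and 3 lower, at a median of -0.17, beside 4.21% and 2.68% of all genes and their median of -0.03. Tgfbi was again higher in H3R26C, at 203 against 57.2 CPM, with Inhba at 7.84 against 2.56, Acvrl1 at 12.2 against 4.90 and, named after its value was seen, the co-receptor Eng at 14.8 against 6.19. Inhba reached the expression minimum mainly through H3R26C 5-Aza. Its call, and the count of 4 with it, thus follows in part from that filter. Acvrl1 and Eng are also known as endothelial genes, and the summed endothelial markers given above, 9.37 against 3.06 CPM in this comparison, moved with them. Their part was not tested. Ccn2, a matricellular TGF-beta target, was lower, at 34.8 against 126 CPM, with Bambi at 3.72 against 14.1 and Smad6 at 8.82 against 22.2. The target genes of the list thus did not share a direction, since Tgfbi was higher in H3R26C for both treatments while Ccn2 was lower after 5-Aza.

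In muscle-like cells of H3WT, 2 pathway genes were higher and 11 lower, at a median of -0.36, beside 5.90% and 9.80% of all genes and their median of -0.18. In those of H3R26C 3 were higher and 10 lower, at a median of -0.56, beside 4.73% and 11.6% of all genes and their median of -0.23. Thbs1, which encodes an activator of latent TGF-beta, was higher in muscle-like cells, at 70.3 against 20.3 CPM in H3WT and 138 against 15.5 in H3R26C. Skil, a repressor of Smad-driven transcription, was 30.6 against 10.1 in H3WT and 36.4 against 16.3 in H3R26C. Acvr2a, a receptor for activin and myostatin, was the other gene called higher in H3R26C, at 17.4 against 5.76 CPM, and it and Skil in H3R26C are named after their values were seen. Tgfbi was lower in both, at 14.9 against 59.3 and 36.9 against 217 CPM. Also lower were Acvrl1 in H3WT, at 0.980 against 5.10 CPM on 4 UMIs in muscle-like cells, and in H3R26C the co-receptor Tgfbr3, at 20.9 against 81.8, and the BMP antagonist Nbl1, at 72.5 against 254 CPM.

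**Figure D5:**
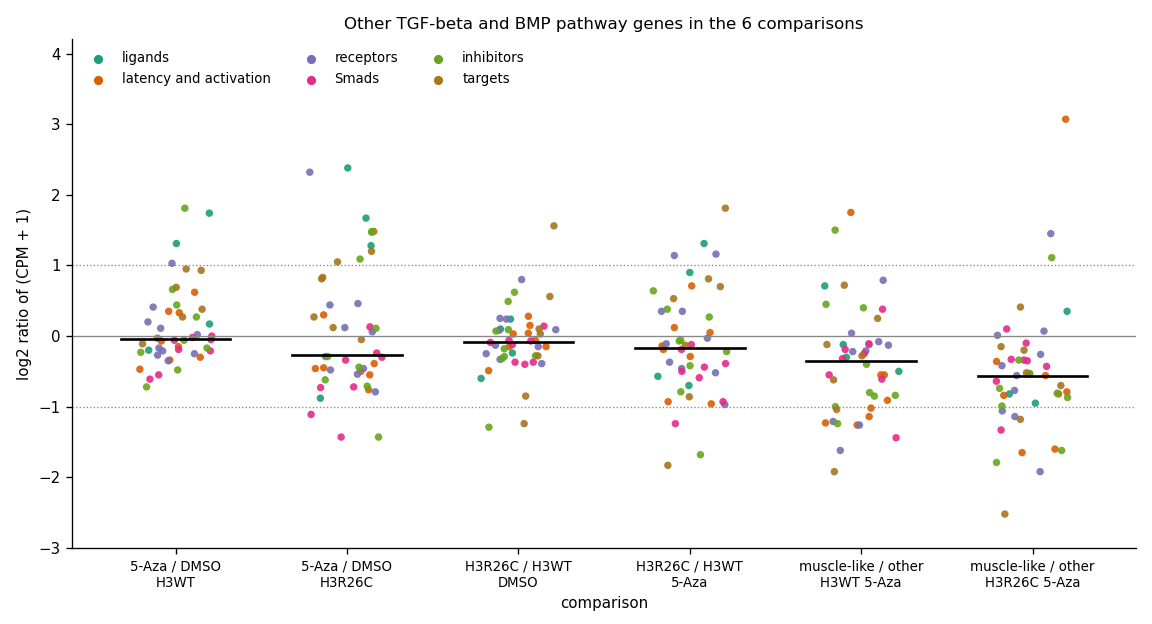
Each point is the log2 ratio of CPM + 1 of a pathway gene outside the 9, among the 46 tested, coloured by role, in the 6 comparisons, with a black line at the median and dotted lines at the 2-fold call. Points are spread sideways at random. The medians of the muscle-like comparisons are -0.36 and -0.56, and 11 and 10 genes lie at or under the lower dotted line there.

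Of 7 genes whose products pair with Id proteins or depend on such pairs, 5 were tested, and 2 were called higher with 5-Aza in each genotype, Myog and Myod1. Both reached the expression minimum through the 5-Aza libraries alone, and Myf5 and Myf6, with at most 1 UMI in any library, did not reach it. The count thus follows in part from that filter and is not read as a result. Myog had 1 UMI in H3WT DMSO and was at 62.7 CPM in H3WT 5-Aza, a ratio of 5449 (978 to 215282). In H3R26C DMSO Myog had 0 UMIs, which allows up to 0.0357 CPM by a limit of 3 UMIs over the library, and it was at 97.4 CPM in H3R26C 5-Aza, at least 2728-fold higher. Myod1, the regulator that specifies myoblasts, had 1 and 0 UMIs with DMSO and was at 19.3 and 31.0 CPM with 5-Aza. In muscle-like cells Myod1 was 327 CPM in H3WT and 358 in H3R26C, where Id2 was at 107 and 105 CPM as given above. The E protein genes Tcf3, Tcf4 and Tcf12 were not past the call in any of the 6 comparisons.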

How the data were processed

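Droplet-based single-cell RNA sequencing of the 4 libraries was analysed from the counts deposited by the authors, who aligned to the mm10 reference (the headers of the files give Cell Ranger 6.1.0, and the submitters' processing notes give Cell Ranger 6 and Seurat 4). These are whole-number UMI counts per gene and barcode without normalization, before the cell filter of the study, and 0 columns were left unmapped. Clustering used SCTransform (sctransform 0.4.2, Seurat 5.3.0, R 4.3.3) with cell cycle scores regressed (43 S and 54 G2M genes, matched to human names by letter case), 20 principal components and a resolution of 0.2. A cluster was named where at least 3 markers of a type were found in 25% of its cells and lay 2 log2 units above other cells. Counts were summed over cells and scaled to CPM with Python 3.11.15, numpy 2.4.6, scipy 1.17.1 and pandas 2.3.3, and figures were drawn with matplotlib 3.10.9. Levels have exact Poisson, ratios exact conditional binomial and shares exact binomial (Clopper-Pearson) 95% intervals, and log2 ratios use a pseudocount of 1 CPM, which understates differences of low genes. Depth was between 84060490 and 110712425 UMIs per library, and only counting error is covered.

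The 9 genes and the lists were chosen with earlier results of these data known. The text names all 9 genes, up to the 6 pathway or Id partner genes with the largest called ratio per comparison, and the 3 genes most like each of the 9 among those with a mean of at least 5 CPM, unless stated, and 1 gene that this rule takes is not reported here. Alternatives changed the scaling (TMM, edgeR 4.0.16), the pseudocount, the expression minimum, the call, the averaging over cells, the phases, the cell filter and the definition of muscle-like cells. Gene starts and promoter sequences came from RefSeq (GRCm38.p6). In counts simulated for 5-Aza against DMSO in H3WT over 12434 genes, 180 of 200 changed genes and 0 of 12234 unchanged genes were called, and 480 of 500 intervals held the true ratio. The simulated counts carried counting error only, and the changed genes were set past the call. The simulation thus checks the calculation and not differences between cells or cultures.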

Additional observations from a re-analysis of the deposited data

How the results depend on the processing

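No paired analysis was possible because the libraries carry no replicate numbers, with 1 per condition. Of 136 counts of calls recomputed, 113 stayed within 1.5 times the main count, and 47 of 54 log2 ratios of the 9 genes kept their sign under every alternative. For the 9 genes, a minimum mean of 10 CPM and no minimum could not change a call or a ratio, and both are among these alternatives. For 5-Aza against DMSO in H3WT, the 4 pathway genes called became 1 with a pseudocount of 5 CPM, 1 with a minimum mean of 10 CPM and 11 with a call at 0.58, and the 0 of the 9 genes became 3 at 0.58. In H3R26C, the 13 pathway genes became 7, 5 and 22, and the 3 of the 9 genes became 7 at 0.58. For H3R26C against H3WT with DMSO, a call at 0.58 gave 2 of the 9 genes in place of 0 and 7 pathway genes in place of 3. After 5-Aza, it gave 5 in place of 1 and 20 pathway genes in place of 7, which the pseudocount and the minimum each brought to 3. For muscle-like against other cells, the 13 pathway genes of H3WT became 8 with the pseudocount, 23 at 0.58 and 0 with muscle-like cells taken by at least 3 markers, and the 4 of the 9 genes became 7 at 0.58 and 0 by markers. In H3R26C the 13 became 7, 25 and 1, and the 4 became 0 by markers. Taking muscle-like cells by markers also turned Bmp4 (-1.45 to 0.18), Tgfb1 (-0.73 to 0.17) and Id2 (0.74 to -0.15) in H3WT and Tgfb3 (-0.57 to 0.09) in H3R26C, and draws in 2944 cells in place of 668. The cause of these changes was not tested, except that a lower call, a larger pseudocount and a higher minimum by construction call more, fewer and fewer genes. Tgfb3 and Tgfbr2 between genotypes with DMSO (0.06 and 0.02 in G1 cells, against -0.02 and -0.09) and Tgfb2 in muscle-like cells of H3R26C (-0.06, with 0.08 under TMM scaling, 0.02 in G1 cells and 0.09 by markers) had no settled sign, and the call of Id1 in muscle-like cells of H3WT (1.03) was lost with a pseudocount of 5 CPM (0.96) and the mean of per-cell CPM (0.90).

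An alternative chosen after seeing the data kept only cells with at most 1 skeletal muscle marker, outside the muscle-like and adipocyte-like clusters. There the log2 ratios of 5-Aza to DMSO in H3R26C were 1.22 for Tgfb1, -1.09 for Tgfb2 and -1.28 for Id2, and Tgfb2 was at -1.39 between genotypes after 5-Aza. Culture, library and condition cannot be told apart with 1 library each. RNA that leaked between droplets and doublets were not removed.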

Other observations

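Cell cycle phase went with other genes of the 9 besides Grem1. In H3WT DMSO, Tgfbr2 was 271 CPM in G1, 213 in S and 178 in G2M cells, and in H3R26C DMSO 276, 183 and 114. After 5-Aza it was 330, 306 and 203 in H3WT and 229, 171 and 143 in H3R26C, so that G1 cells had the highest and G2M cells the lowest level in every library. Id1 had the reverse order at its ends, with 53.6 CPM in G1 and 82.7 in G2M of H3WT DMSO, 34.3 and 80.5 in H3WT 5-Aza, 74.1 and 120 in H3R26C DMSO and 45.6 and 76.9 in H3R26C 5-Aza. Tgfb2 was 95.6 CPM in G1 and 32.6 in G2M cells of H3R26C DMSO. Phase was assigned from expression scores, and no test was made between phases.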
